A study of Mus musculus with 16 samples.

Results

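Transcripts of 10 genes that sense or relay mechanical force were compared between wild type tail tendon fascicles and fascicles from mice lacking Vhl in cells of the Scx lineage. The 10 genes were taken by symbol from the 25719 genes of the deposited count files, and all 10 were found and passed the filter on low counts. They are the mechanosensitive ion channels Piezo1, Piezo2 and Trpv4, the transcriptional co-activators Yap1 and Wwtr1 (the gene for TAZ), the DNA-binding factors Tead1, Tead2, Tead3 and Tead4, and Ankrd1, a target gene of YAP and TAZ. The wild type group (WT) and the knockout group (KO) held 8 libraries each. Per the series text, the knockout mice had the genotype ScxCre;Vhlf/f: both Vhl alleles are floxed, and Cre is made under the control of Scx, a tendon transcription factor gene, so deletion is limited to cells that express or have expressed the driver. Age, sex and strain of the mice, whether the wild type mice carried Cre or floxed alleles, and whether each library came from a separate animal are not given in the sources used here, so p-values measure the spread between these libraries. Fascicles are thin strands of collagen pulled from the tail, and the labels give the cell type as all cells of the tissue.

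PIEZO1, PIEZO2 and TRPV4 are channels of the plasma membrane that let calcium enter when the membrane is stretched, indented or, for TRPV4, swollen or warmed. In tendon cells PIEZO1 is known as a sensor of shear between collagen fibres. YAP and TAZ are kept out of the nucleus or degraded after phosphorylation by the LATS kinases of the Hippo pathway. On stiff or stretched substrates they enter the nucleus, where they bind DNA only through a partner, mostly a TEAD factor. TEAD factors recognise a short site known as the MCAT element, and VGLL proteins compete for the same surface of TEAD. The activity of YAP, TAZ and the channels is set largely at the level of the protein, which was not measured in these libraries.

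Stretches of 30 bases that hold the TEAD recognition letters are shown for the members in whose promoters these letters were found, because TEAD factors are themselves members. A promoter is the window from 250 bases before to 50 bases after an annotated start in RefSeq (GRCm38.p6). An entry was matched by symbol for 7 of the 10 members, and Piezo2, Tead1 and Tead4 had none. The motif searched was CATTCC on both strands (GGAATG on the other), which lies in at least one promoter of 16.6% of 27025 genes. It was found for 4 of the 7 members, Yap1, Wwtr1, Tead3 and Ankrd1. The lines below run 5′ to 3′ on the strand of the gene, with the motif in capitals. Each motif is located by its 5′ base, where -1 is the base before the start.
Yap1, chr9:8004720-8004749, minus strand, motif at -141: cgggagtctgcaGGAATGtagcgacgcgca
Wwtr1, chr3:57576029-57576058, minus strand, motif at -136: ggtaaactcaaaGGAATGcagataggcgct
Tead3, chr17:28350702-28350731, minus strand, motifs at -123 and -114: gccgggctCATTCCgtaCATTCCggccatc
Ankrd1, chr19:36120037-36120066, minus strand, motif at -210: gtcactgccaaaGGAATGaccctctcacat
Ankrd1, chr19:36119950-36119979, minus strand, motif at -123: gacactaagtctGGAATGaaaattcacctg
Tead3 and Wwtr1 have further annotated starts, and a single window is shown for each. For Tead3 the window with the most matches was chosen, which also holds a match at position 3. Another Tead3 window has 1 match, at -182, and a further Tead3 window has 0. The core letters of the HIF response element, ACGTG or GCGTG on either strand, were found for 2 of the 7 members, Yap1 at -187, -163 and -162 (the last 2 matches overlap) and Wwtr1 at -2, against 46.7% of all genes. The 4 members with the TEAD letters did not move in one direction between the genotypes, as the values below show. A match describes letters in a window and is not a site of binding.

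Total counts ran from 10792900 to 16379401 per wild type library and from 10488355 to 18753254 per knockout library. Vhl itself lay between 14.1 and 25.8 CPM in the wild type and between 7.51 and 10.9 CPM in the knockout (CPM, counts scaled to a common library size, with sizes adjusted by trimmed mean of M-values), so each library followed its label. Markers of tissue other than tendon varied between libraries. Summed over 20 skeletal muscle markers, such as Neb and Acta1, the level was 68.1 to 5751 CPM in the wild type and 301 to 12931 CPM in the knockout, and knockout libraries 6, 7 and 8 exceeded every other library. Summed over 12 endothelial markers, such as Pecam1 and Tek, it was 40.8 to 58.9 CPM in the wild type and 59.7 to 555 CPM in the knockout, with no overlap, and the same 3 knockout libraries were again highest. No muscle or endothelial marker was at 0 in every library of a group. Summed mural cell markers such as Rgs5 and Cspg4 ran from 354 to 473 CPM in the wild type and from 328 to 1485 CPM in the knockout. These 2 markers went opposite ways. Rgs5 rose from 4.53 ± 6.83 to 308 ± 272 CPM, whereas Cspg4 fell from 217 ± 27.9 to 179 ± 29.9 CPM (SD, n = 8). Pecam1 was at 0.867 ± 0.543 and 58.7 ± 52.5 CPM (SD, n = 8), whereas Tek was at 22.7 ± 5.14 and 21.4 ± 7.01 CPM. The tendon markers, led by Col1a1 and Col1a2, summed to between 137637 and 387474 CPM in the wild type and between 83546 and 185144 CPM in the knockout. Wild type library 3 was the lowest of the wild type and lay within the knockout range. Fewer cells of a type and less RNA per cell cannot be told apart in bulk tissue.

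Of the 10 members, 3 were higher in the knockout (Tead2, Tead3 and Ankrd1), 2 were lower (Yap1 and Tead1) and 5 did not pass an adjusted p of 0.05 (edgeR quasi-likelihood test, Benjamini-Hochberg adjustment over 14803 tested genes). Of all tested genes, 48.3% passed, 25.6% as higher and 22.7% as lower, so 5 of 10 is close to the share of all genes. The groups did not overlap for 2 members, Tead1 and Tead2, against 19.4% of tested genes. The median log2 fold change of the members was 0.04, and that of all tested genes was 0.02. Without knockout libraries 6, 7 and 8, a setting added after the data were seen, the counts were again 3 higher and 2 lower. They were 5 higher and 1 lower with total counts, 3 and 1 with the muscle score as covariate, and 0 and 1 with the endothelial score as covariate.

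**Figure D1:**
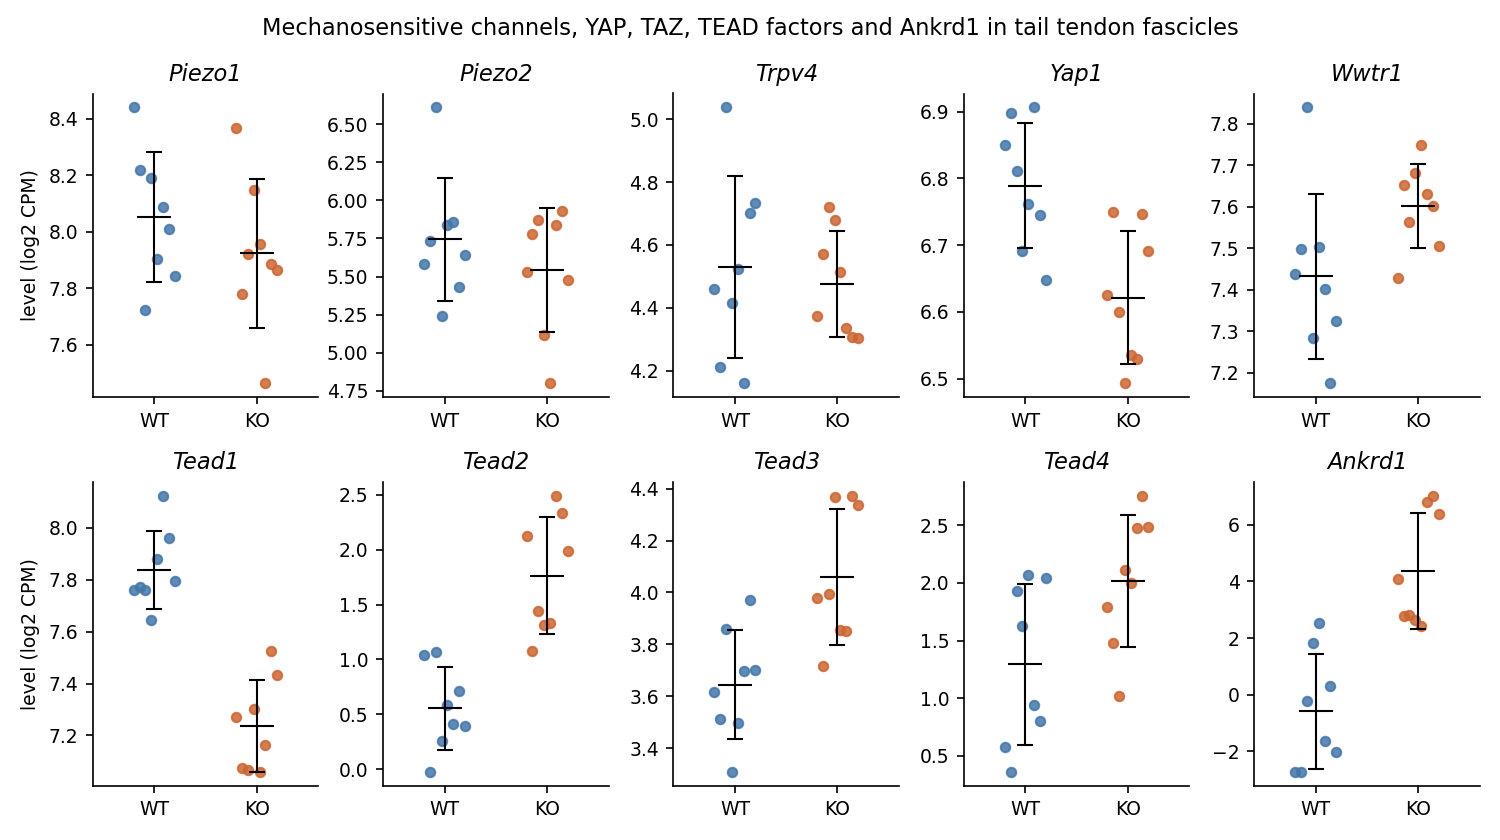
Levels of the 10 genes in log2 CPM (vertical axis, one scale per panel) in each wild type (WT, blue) and knockout (KO, orange) library, with the mean and SD of 8 libraries in black. The groups do not overlap for Tead1 and Tead2, and Ankrd1 spreads over the widest range in both groups.

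Compared per length of exon, Wwtr1 was the most abundant member in the wild type. Levels there were 36.4 ± 5.34 CPM per kilobase for Wwtr1, 27.0 ± 4.41 for Piezo1, 16.9 ± 1.81 for Tead1 and 11.95 ± 0.776 for Yap1 (SD, n = 8). Below these lay Trpv4 at 5.74 ± 1.20, Piezo2 at 3.24 ± 1.07 and Tead3 at 1.86 ± 0.275 CPM per kilobase, and Tead4, Ankrd1 and Tead2 were each under 1 on average. Neighbours in this order overlapped between libraries except Piezo1 and Tead1, Tead1 and Yap1, Yap1 and Trpv4, and Tead3 and Tead4. In the knockout Ankrd1 stood between Piezo1 and Tead1 on average, at 15.95 ± 18.6 CPM per kilobase, with a spread as large as its mean. Tead1 and Yap1, separate in the wild type, overlapped in the knockout at 11.2 ± 1.40 and 10.6 ± 0.742 CPM per kilobase. Exon lengths were the merged exons of GENCODE M21, which can exceed the length of the isoforms in use.

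The channels did not pass the threshold. Piezo1 (ENSMUSG00000014444, chromosome 8) ranged from 211 to 347 CPM with a median of 265 in the wild type and from 176 to 330.2 CPM with a median of 239 in the knockout. The ranges overlapped over most of their length, and the log2 fold change was -0.12 (95% interval -0.35 to 0.10, edgeR adjusted p = 0.398). Its merged exons share 2441 bases with Ctu2 on the opposite strand, and the strand setting of the counting is not given in the sources used here, so its counts are uncertain. The gene most like it across libraries was Ctu2 (Pearson r = 0.95 over 16 libraries, with genotype means removed). Sec16b and Fndc1 came next at 0.92 and 0.91.

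Piezo2 (ENSMUSG00000041482, chromosome 18), the channel best known from touch and position sense, ranged from 37.7 to 97.6 CPM with a median of 51.5 in the wild type and from 27.7 to 60.9 CPM with a median of 50.4 in the knockout. The groups overlapped, and wild type library 3 lay above all others. The log2 fold change was -0.21 (95% interval -0.59 to 0.16, edgeR adjusted p = 0.382), and -0.05 without that library. Trpv4 (ENSMUSG00000014158, chromosome 5) ranged from 17.7 to 32.7 CPM with a median of 22.4 in the wild type and from 19.6 to 26.2 CPM with a median of 21.6 in the knockout. The knockout values lay within the wild type range, at a log2 fold change of -0.07 (95% interval -0.29 to 0.15, edgeR adjusted p = 0.613).

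Within a library the ratio of Piezo2 to Piezo1 counts does not depend on scaling between libraries. Its mean log2 was -2.31 ± 0.576 in wild type and -2.38 ± 0.567 in knockout libraries (SD, n = 8), a difference of -0.07 (two-sided exact permutation test, p = 0.803, adjusted over 2 ratios 0.803). This ratio varied more between libraries of one genotype than between genotypes, from -2.95 to -1.11 in the wild type and from -3.16 to -1.63 in the knockout. Deviations of Piezo1 and Piezo2 from their genotype means ran in opposite directions across the 16 libraries (Pearson r = -0.50, a description over libraries that differ in muscle content and depth). Among the member pairs only Piezo1 and Tead4 had a lower r (-0.51). Wild type library 3, the highest for Piezo2, was also the lowest of the wild type for Piezo1. The overlap with Ctu2 leaves the Piezo1 counts uncertain here too.

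Yap1 was slightly lower in the knockout. Yap1 (ENSMUSG00000053110, chromosome 9) ranged from 100.1 to 119.8 CPM with a median of 110.2 in the wild type and from 89.9 to 107 CPM with a median of 97.7 in the knockout. Of the knockout libraries, 5 lay below every wild type library, and the other 3 overlapped them. Yap1 fell by 0.17 on the log2 scale (SE 0.0564, edgeR adjusted p = 0.0194), a 1.12-fold change in a gene whose coefficient of variation was 6.50% in wild type and 6.97% in knockout libraries. The direction turned when libraries were scaled to total counts, to 0.14 (adjusted p = 0.0850), where the median of all tested genes moved to 0.32. With the skeletal muscle score as a covariate Yap1 differed by -0.16 and no longer passed (adjusted p = 0.0676), nor did it with the endothelial score (-0.15, adjusted p = 0.314).

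Wwtr1 did not pass the threshold and lay on the other side of 0. Wwtr1 (ENSMUSG00000027803, chromosome 3) ranged from 144 to 229 CPM with a median of 171 in the wild type and from 172 to 215 CPM with a median of 196 in the knockout. The highest value was that of wild type library 3, and the other 7 wild type libraries did not exceed 181 CPM. The log2 fold change was 0.16 (SE 0.0807, edgeR adjusted p = 0.111). Without wild type library 3 it was 0.22 and passed the threshold (adjusted p = 0.00939), and with total counts it was 0.45 (adjusted p = 0.00130).

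The balance of the 2 co-activators shifted towards Wwtr1. There were 1.56 Wwtr1 counts for each Yap1 count in wild type and 1.97 in knockout libraries (geometric means of 8 libraries). On the log2 scale the ratio was 0.64 ± 0.183 in wild type and 0.98 ± 0.167 in knockout libraries (SD, n = 8), and it did not depend on scaling between libraries. All 8 knockout libraries exceeded 7 of the 8 wild type libraries, and wild type library 3 was the exception, at 1.03. The difference of 0.34 was larger than the SD of either group, though smaller than either group's range (two-sided exact permutation test over 12870 assignments, p = 0.00295, adjusted over 2 ratios 0.00591). Without wild type library 3 the difference was 0.39. The groups then separate fully, so the exact permutation test p of 0.000155 is fixed at the smallest value possible. Without knockout libraries 6, 7 and 8 the difference was 0.37 (exact permutation test, p = 0.00777).

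Among the TEAD factors Tead1 fell while Tead2 and Tead3 rose. Tead1 (ENSMUSG00000055320, chromosome 7) encodes the predominant TEAD factor of these libraries. It ranged from 199.8 to 279 CPM with a median of 220.2 in the wild type and from 133 to 184 CPM with a median of 149 in the knockout. Every knockout library lay below every wild type library, which 8.61% of tested genes also showed. Tead1 fell by 0.60 on the log2 scale, a 1.51-fold change (SE 0.0827, edgeR adjusted p = 6.18e-06). The call held in all 28 other settings, with log2 fold changes between -0.91 and -0.29 and adjusted p between 6.06e-12 (DESeq2 Wald test) and 0.00816 (edgeR with total counts).

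Tead2 (ENSMUSG00000030796, chromosome 7), a factor most abundant in embryonic tissue, was the rarest member per length in the wild type. Its values were 1.91, 0.832, 1.95, 1.05, 1.34, 1.18, 1.49 and 1.16 CPM in wild type libraries 1 to 8 and 4.21, 1.956, 2.56, 2.33, 2.37, 5.47, 4.90 and 3.82 CPM in knockout libraries 1 to 8. The groups did not overlap, though knockout library 2 exceeded wild type library 3 by very little, and all values rest on 11 to 108 counts per library. Tead2 rose 2.57-fold, a log2 fold change of 1.36 (SE 0.242, edgeR adjusted p = 1.08e-04). Knockout libraries 1, 6, 7 and 8, which had the most skeletal muscle signal of the knockout, were the 4 highest. Tead2 still passed when libraries 6, 7 and 8 were left out (0.98, adjusted p = 0.00271). Adding the muscle score to the model gave 0.95 (adjusted p = 0.00452), and adding the endothelial score instead gave 0.29, which did not pass (adjusted p = 0.588).

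Tead3 (ENSMUSG00000002249, chromosome 17) ranged from 9.76 to 15.5 CPM with a median of 12.5 in the wild type and from 13.0 to 20.6 CPM with a median of 15.7 in the knockout. Of the knockout libraries, 5 exceeded every wild type library. Tead3 rose by 0.43 on the log2 scale (SE 0.115, edgeR adjusted p = 0.00448), and by 0.34 without knockout libraries 6, 7 and 8 (adjusted p = 0.0344). Tead3 did not pass with the endothelial score as covariate (0.04, adjusted p = 0.905). Tead4 (ENSMUSG00000030353, chromosome 6), which in muscle acts downstream of the myogenic factors, ranged from 1.13 to 4.03 CPM in the wild type and from 1.88 to 6.60 CPM in the knockout. The groups overlapped for 4 knockout libraries, and the log2 fold change of 0.71 missed the threshold narrowly (SE 0.291, edgeR adjusted p = 0.0504). It passed in 8 of the other 28 settings and was 0.31 without knockout libraries 6, 7 and 8 (adjusted p = 0.447).

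**Figure D2:**
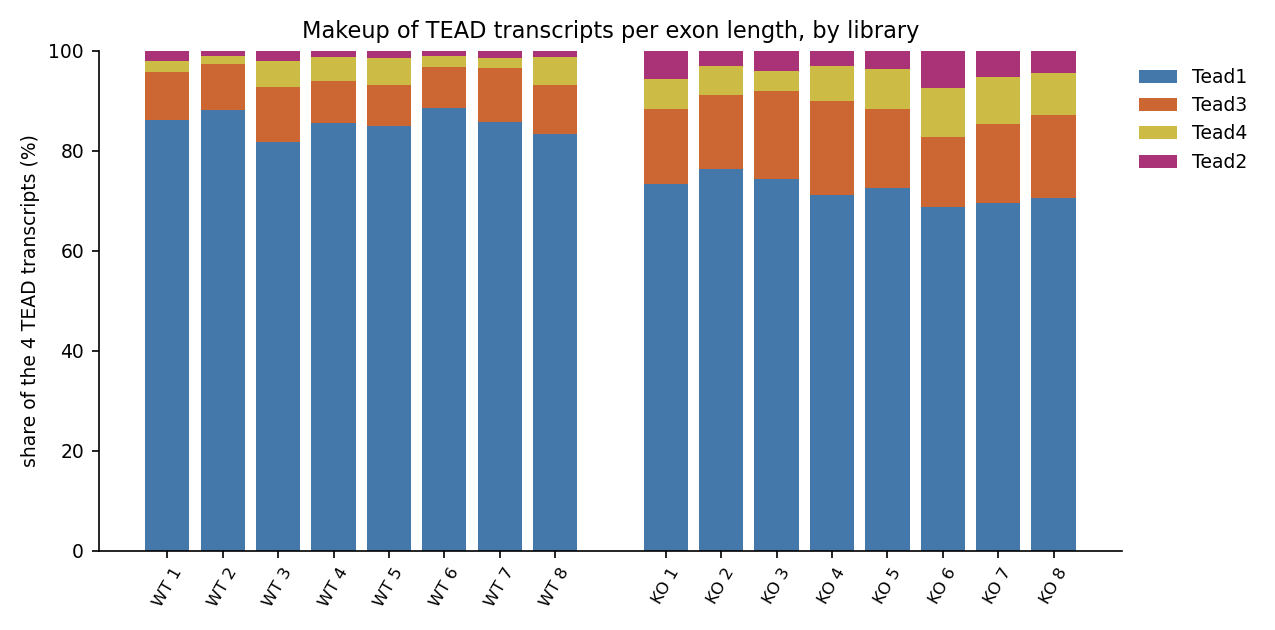
Share of each TEAD gene in the 4 TEAD transcripts, as counts divided by merged exon length (percent, vertical axis), in every wild type and knockout library. Tead1 takes 81.7% to 88.6% in the wild type and 68.8% to 76.3% in the knockout.

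The makeup of TEAD transcripts therefore differed in a way that no scaling between libraries can alter. Tead1 made up 85.5% ± 2.26 of them in wild type and 72.1% ± 2.53 in knockout libraries (SD, n = 8, per exon length). Tead3 made up 9.40% ± 1.10 and 16.03% ± 1.57, without overlap. Tead4 made up 3.62% ± 1.78 and 7.27% ± 2.02, with overlap, and Tead2 made up 1.45% ± 0.443 and 4.58% ± 1.50, without overlap. The sum of the 4 genes was 19.8 ± 1.89 CPM per kilobase in wild type and 15.6 ± 2.32 in knockout libraries, with overlap between the groups. Because the shares of a library add up to the whole, a lower share of Tead1 means higher shares of the others. In CPM, Tead3 overlapped between the groups. These shares describe members chosen as a family and carry no test. Across libraries, with genotype means removed, Tead1 and Tead3 varied most alike of all member pairs (Pearson r = 0.71, n = 16 libraries).

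**Figure D3:**
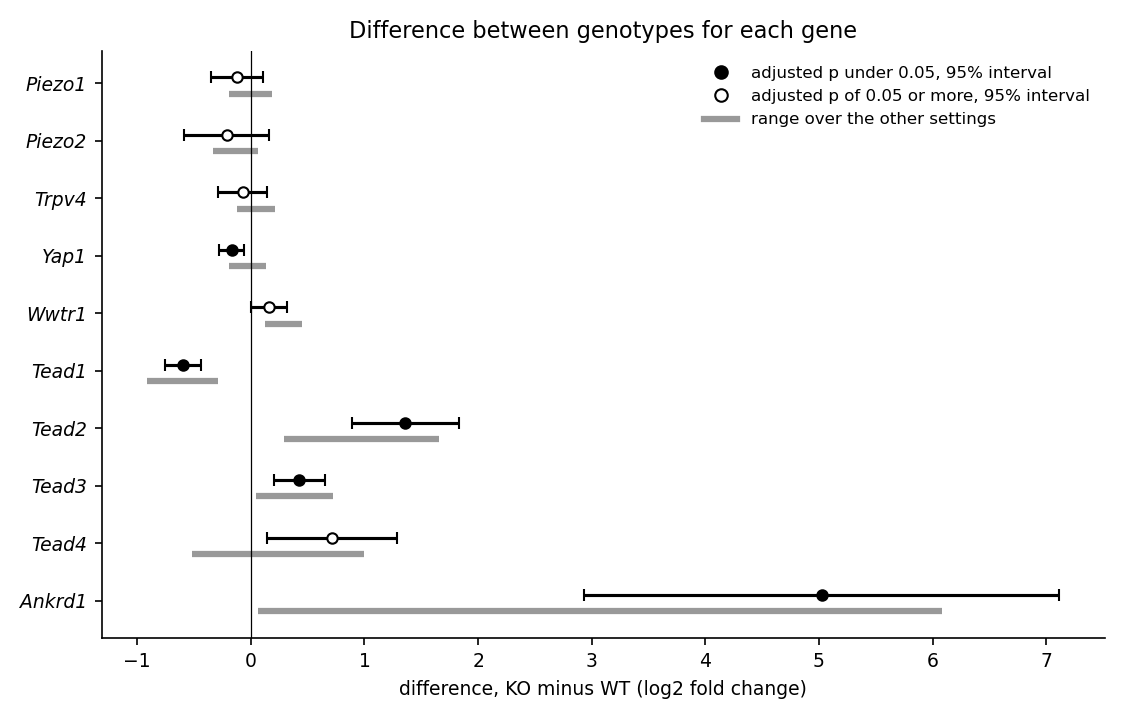
Difference between knockout and wild type (log2 fold change, horizontal axis) for each gene with its 95% interval, filled where the edgeR adjusted p was under 0.05, and in grey the range over the 28 other settings. Tead1 stays below 0 over the whole grey bar, and Ankrd1 has the widest bar, from 0.06 to 6.08.

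Ankrd1 showed the largest difference of the members and the largest spread. Ankrd1 (ENSMUSG00000024803, chromosome 19) encodes an ankyrin repeat protein of the sarcomere and nucleus that is induced by stretch in muscle and is widely used as a readout of YAP and TAZ. Its values in wild type libraries 1 to 8 were 0, 0, 0.702, 3.42, 5.67, 0.169, 1.09 and 0.0966 CPM. In knockout libraries 1 to 8 they were 16.7, 6.72, 6.92, 6.03, 5.24, 112.7, 130.5 and 83.5 CPM. In the wild type 4 libraries were at or under 3 counts, and in the knockout none was. Of the knockout libraries, 7 exceeded every wild type library, and the other, library 5, lay just under wild type library 5. The log2 fold change was 5.03 (SE 1.07, edgeR adjusted p = 0.00118).

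**Figure D4:**
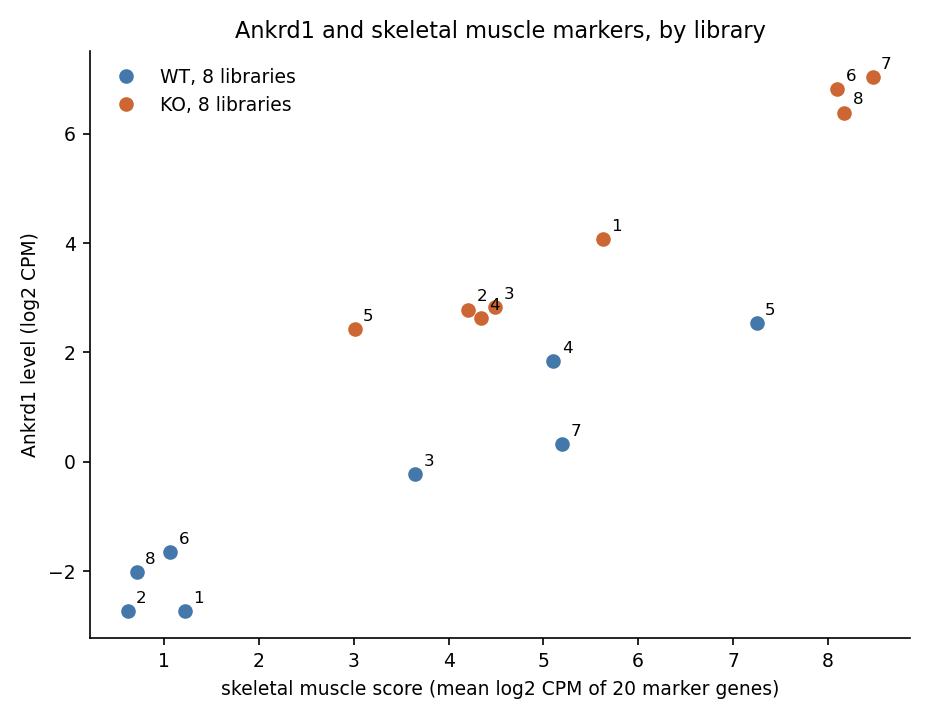
Ankrd1 level (log2 CPM, vertical axis) against the skeletal muscle score (mean log2 CPM of 20 muscle markers, horizontal axis) in wild type (blue) and knockout (orange) libraries, numbered by replicate. Knockout libraries 6, 7 and 8 are highest on both axes, and knockout library 5, with a score of 3.01, has nearly the Ankrd1 level of wild type library 5, with a score of 7.25.

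The level of Ankrd1 followed the skeletal muscle markers within each genotype. The muscle score was 8.10, 8.47 and 8.18 in knockout libraries 6, 7 and 8, which had the highest Ankrd1, and 3.01 in knockout library 5, which had the lowest of the knockout. In the wild type the score was 5.11 and 7.25 in libraries 4 and 5, which had the highest Ankrd1, and between 0.62 and 1.22 in libraries 1, 2, 6 and 8, which had the lowest. Within each genotype the scores were unevenly spread, with knockout libraries 6, 7 and 8 far above the other knockout libraries (3.01 to 5.63), so no correlation with the score is given. Between the genotypes the score overlapped, at 0.62 to 7.25 in the wild type and 3.01 to 8.47 in the knockout. Knockout libraries 2, 3 and 4 had scores of 4.21, 4.49 and 4.34 and held 6.03 to 6.92 CPM of Ankrd1. Wild type libraries 3, 4 and 7 had scores of 3.65, 5.11 and 5.20 and held 0.702, 3.42 and 1.09 CPM. With the muscle score as a covariate the log2 fold change was 2.86 (SE 0.274, edgeR adjusted p = 1.28e-07). Without knockout libraries 6, 7 and 8 it was 2.54 (SE 0.794, adjusted p = 0.0213).

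The genes whose pattern across libraries was most like that of Ankrd1, with genotype means removed, were Rtn2, Srl and Myot (Pearson r = 0.98 for each, n = 16 libraries). Srl encodes sarcalumenin of the sarcoplasmic reticulum and Myot the Z-disc protein myotilin. None of the 3 passed the threshold between genotypes, with log2 fold changes of 1.68, 1.62 and 2.59 (edgeR adjusted p = 0.150, 0.219 and 0.0792). Ankrd1 also has a pair of close relatives in muscle, Ankrd2 and Ankrd23. Ankrd23 rose by 2.95 (SE 0.869, adjusted p = 0.0115) and Ankrd2, named after its values were seen, by 3.44 (SE 1.15, adjusted p = 0.0225). With the muscle score as a covariate these differences were 0.59 (adjusted p = 0.296) and 0.41 (adjusted p = 0.592), and neither passed, whereas Ankrd1 did. With the endothelial score Ankrd23 differed by -1.73 (adjusted p = 0.142) and Ankrd2 turned to -4.82 (adjusted p = 0.0456). Whether the change of Ankrd1 differs from that of its relatives was not tested. When the endothelial score, which did not overlap between the genotypes on the summed level, was the covariate, Ankrd1 differed by 0.06 and did not pass (adjusted p = 0.972), and Tead1 still passed at -0.91 (adjusted p = 3.03e-05). Genotype and endothelial signal can barely be told apart in such a fit, and the part of endothelial RNA in these results was not tested in another way.

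The other members had neighbours of many functions. Those of Yap1 were Tmem245, Dchs2 and Setd2 (Pearson r = 0.90, 0.84 and 0.81, n = 16 libraries), and those of Wwtr1 included Stx3 and Taok1, a kinase upstream of the Hippo cascade (0.86 and 0.85). Tead1 was most like Pdgfrb, a receptor of mural cells and fibroblasts, Map4k3 and Agtr1a (0.88, 0.87 and 0.86). Tead4 was most like Gngt2, Pdlim7 and Plekho1 (0.88, 0.85 and 0.85), Tead2 like Ccdc88c, Sntb1 and Klhdc8b (0.87, 0.86 and 0.86), and Tead3 like Gm37314, Fnip2 and Gm42979 (0.86, 0.84 and 0.84). Piezo2 was most like Plk2, Zbtb44 and Slmap (0.87, 0.85 and 0.84) and Trpv4 like Sema3e, Cd55 and Cadm3 (0.87, 0.86 and 0.85). Values of r this high are the largest of 13416 genes compared with each member and carry no test.

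**Figure D5:**
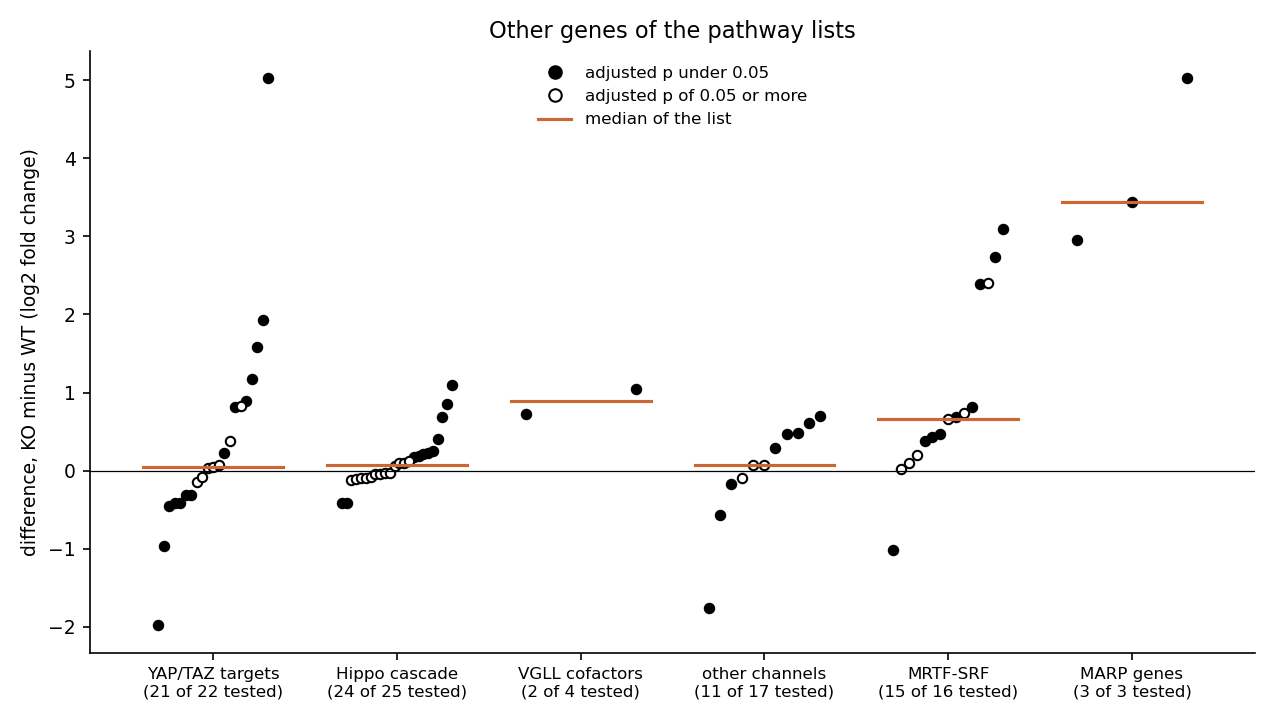
Difference between knockout and wild type (log2 fold change, vertical axis) of each tested gene in 6 lists, filled where the edgeR adjusted p was under 0.05, with the median of each list in orange. The highest point of both the YAP/TAZ and the MARP list is Ankrd1 itself, YAP/TAZ targets lie on both sides of 0, and the MRTF-SRF list has its median at 0.66.

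YAP/TAZ target genes moved both ways. Of 22 listed targets 21 were tested, of which 7 were higher in the knockout, 7 were lower and 7 did not pass, with a median log2 fold change of 0.04 beside 0.02 for all tested genes. Of all tested genes 25.6% were higher and 22.7% lower. The counts without knockout libraries 6, 7 and 8 were also 7 and 7. With total counts 11 targets were higher and 2 lower (median 0.34), and with the endothelial score 4 were higher and 6 lower (median -0.12). Ccn1 and Ccn2, secreted matricellular proteins and the most used readouts of YAP and TAZ, did not pass in the main fit. Ccn1 was at 80.5 ± 75.7 CPM in wild type and 143 ± 33.7 CPM in knockout libraries (SD, n = 8, log2 fold change 0.83, edgeR adjusted p = 0.0985). Its wild type median was 58.5 CPM with a maximum of 262 CPM, and its knockout values ran from 109 to 214 CPM. Ccn1 passed with total counts (1.10, adjusted p = 0.0297), but not with the muscle score (0.49, adjusted p = 0.167) or the endothelial score (0.25, adjusted p = 0.814). Ccn2 was at 659 ± 345 and 857 ± 449 CPM (0.38, adjusted p = 0.428), a spread within genotypes far above that of Yap1. Amotl2, which feeds back on YAP, differed by -0.07 (adjusted p = 0.611).

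Besides Ankrd1, the targets with the largest increase were Igfbp3 and Dock5. Igfbp3, a carrier of insulin-like growth factors, rose from 14.2 ± 3.87 to 54.2 ± 28.8 CPM (log2 fold change 1.94, edgeR adjusted p = 1.89e-04), and Dock5, an activator of Rac, rose from 26.9 ± 4.84 to 81.0 ± 11.7 CPM (1.59, adjusted p = 3.25e-10). The largest decreases were those of Fjx1, from 12.9 ± 3.43 to 3.23 ± 0.966 CPM (-1.98, adjusted p = 7.72e-08), the receptor tyrosine kinase gene Axl, from 749.5 ± 63.8 to 386 ± 36.8 CPM (-0.96, adjusted p = 3.26e-09), and Asap1 (-0.45, adjusted p = 9.50e-05). None of these 5 genes, picked for the size of their change, overlapped between the groups, which 19.4% of all tested genes also showed. For Asap1 the gap was very small, from 135.7 CPM in the highest knockout library to 135.8 CPM in the lowest wild type library. Axl, Fjx1 and Dock5 kept their direction and passed with total counts, with the muscle score and with the endothelial score as covariate. Igfbp3 did not pass with the endothelial score (0.77, adjusted p = 0.232), nor Asap1 with total counts (-0.14, adjusted p = 0.121).

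Of 25 genes of the Hippo cascade and its regulators 24 were tested, 9 were higher and 2 lower, with a median of 0.08. The 45.8% called is near the 48.3% of all tested genes. With total counts 18 were higher and 0 lower (median 0.37), against 5 and 2 with the muscle score and 3 and 3 with the endothelial score. The kinase gene Lats1 differed by -0.05 (edgeR adjusted p = 0.495), and Lats2, both a kinase of YAP and a target of it, rose by 0.23 (adjusted p = 0.0113), which no longer passed with the muscle score as covariate (0.20, adjusted p = 0.0565). Ajuba, a LIM protein that restrains LATS, rose from 11.6 ± 2.57 to 21.1 ± 2.94 CPM (0.86, adjusted p = 9.85e-06), without overlap. Among all tested genes 10.8% were higher without overlap. Amot (1.10, adjusted p = 0.0287) and the protocadherin gene Dchs1 (0.69, adjusted p = 0.00400) rose too, but without knockout libraries 6, 7 and 8 Amot differed by 0.08 and did not pass, and Dchs1 passed at 0.38 (adjusted p = 0.0464). With the endothelial score as covariate Amot turned to -1.01 (adjusted p = 0.0355) and Dchs1 to -0.12 (adjusted p = 0.757). The lower genes were Amotl1, a scaffold that holds YAP at junctions (-0.41, adjusted p = 1.57e-04), and the phosphatase gene Ptpn14 (-0.41, adjusted p = 1.88e-04). With total counts both differed by -0.11 and -0.10 and did not pass.

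Both tested VGLL cofactors rose. Among all tested genes 25.6% were higher, and 10.8% were higher without overlap. Vgll3 rose from 15.4 ± 5.46 to 31.8 ± 4.52 CPM (log2 fold change 1.04, edgeR adjusted p = 5.13e-05) and Vgll4, a repressor of TEAD activity, from 31.2 ± 3.40 to 51.9 ± 8.69 CPM (0.73, adjusted p = 3.54e-06), the latter without overlap. Both passed with the muscle score, with the endothelial score and without knockout libraries 6, 7 and 8. The other two genes of this list, Vgll1 and Vgll2, named after their values were seen, did not pass the filter on low counts.

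Of 17 other listed mechanosensitive channel genes 11 were tested, 5 were higher and 3 lower, with a median of 0.07, against 48.3% called among all tested genes. With total counts 7 were higher and 2 lower (median 0.37), and with the endothelial score 4 were higher and 1 lower. Kcnk2, which encodes the stretch-gated potassium channel TREK-1, fell from 66.2 ± 10.4 to 19.6 ± 5.73 CPM (log2 fold change -1.76, edgeR adjusted p = 4.91e-08), and the polycystin gene Pkd2 fell from 646 ± 73.9 to 435 ± 47.4 CPM (-0.57, adjusted p = 1.68e-05), both without overlap. With the endothelial score as covariate Kcnk2 passed at -1.08 and Pkd2 did not (-0.40, adjusted p = 0.0642). Trpm7 fell by 0.17 (adjusted p = 0.0298), but with total counts its direction turned to a rise of 0.14, which did not pass (adjusted p = 0.109). Higher without overlap were Trpv2 (0.70, adjusted p = 5.31e-05), Trpc1 (0.61, adjusted p = 8.38e-07) and Lrrc8a, a subunit of the volume-regulated anion channel (0.49, adjusted p = 3.63e-07). Trpv2 did not pass with the endothelial score (0.24, adjusted p = 0.364), whereas Trpc1 and Lrrc8a did. The channel genes named here were picked for the size of their change, and 19.4% of all tested genes did not overlap between the groups. Differences between these genes and the members were not tested.

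MRTF and SRF form a parallel force-responsive pathway that reads the pool of free actin. Of 16 listed genes 15 were tested, 8 were higher and 1 lower, with a median of 0.66, against 48.3% called among all tested genes. With total counts 13 were higher and 1 lower (median 0.98). Myl9 (3.09, edgeR adjusted p = 0.00128), Tagln (2.74, adjusted p = 3.13e-04) and Fhl2 (2.39, adjusted p = 8.64e-09) rose most among the genes that passed, and Cnn2 fell by 1.02 (adjusted p = 0.00631). Myl9 and Tagln are also genes of mural cells, whose summed markers exceeded all wild type libraries in 5 knockout libraries, and without knockout libraries 6, 7 and 8 they differed by 1.48 and 1.47. With the endothelial score as covariate they differed by -0.93 and -0.27 and did not pass, and Fhl2 passed at 1.97. The median of the list was 0.31 without those 3 libraries and 0.22 with the muscle score as covariate, with 8 genes higher and 1 lower in each case. With the endothelial score 1 gene was higher and 3 were lower, and the median turned to -0.16. The part of vessel and muscle RNA in these differences was not tested further.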

How the data were processed

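Per the file headers, the authors deposited matched counts, 1 column of whole-number counts per library and gene. Per the submitters' processing notes, kallisto, featureCounts and the build GRCm39 were used, with roles, versions, annotation and strand setting not given in the sources used here. Of 25719 genes, 25614 were matched to a symbol. Chromosomes, exon overlaps and lengths came from GENCODE M21 and promoters from RefSeq, both GRCm38, so no gene positions are given. Counts were fitted in R 4.3.3 with edgeR 4.0.16 (quasi-likelihood F test, robust, TMM, default expression filter on genotype, 2-sided, Benjamini-Hochberg over 14803 genes; 10916 were not tested). SE is the log2 fold change divided by the root of F, and 95% intervals are 1.96 SE. Log2 CPM used a prior count of 2, and the ratios one of 0.5. Members, lists and tests were chosen with earlier results of these data known. All 10 members were named; from each pathway list up to 3 called genes per direction with the largest change and a mean log2 CPM of at least 1, with Ccn1, Ccn2, Amotl2, Lats1 and Lats2; from each marker list the 2 most abundant genes; and the 3 genes most like each member, of which 1 is not reported here. A count of 3 equalled 0.145 to 0.336 CPM, which covers counting error only. Alternatives used DESeq2 1.42.0 and limma 3.58.1 (voom), other scalings and filters, covariates, the replicate block and left-out libraries.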

Additional observations from a re-analysis of the deposited data

Results flagged for a closer look

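In 24 checks of 8 libraries each, covering the 10 members and the 2 ratios, 1 library stood apart from the others of its group, where chance gives about 1 in 20 checks. It was the level of Piezo2 in wild type library 3, at a log2 CPM of 6.61 against 5.86 in the next highest wild type library. The same library was also the highest of the wild type for Trpv4, Wwtr1 and Tead2, and the lowest for Piezo1. Its tendon markers summed to 137637 CPM, the lowest of the wild type. Its trimmed mean of M-values factor of 1.07 was the highest of the wild type and lay within the knockout range of 1.06 to 1.17.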

How the results depend on the processing

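Tead1 kept its direction and its call in all 28 other settings, and Tead2, Tead3 and Ankrd1 did in 27, failing with the endothelial score as covariate. That setting and the one without knockout libraries 6, 7 and 8 were added after the data were seen. With the endothelial score as covariate 0 members were called higher and 1 lower. With total counts 5 members were called higher and 1 lower, since the median of all tested genes moved to 0.32, and signs turned for Piezo1 (0.19), Piezo2 (0.065), Trpv4 (0.21) and Yap1 (0.14). Of 9685 calls on that scale 85.4% were higher, against 53.0% of 7151, and with the endothelial score 3992 genes passed. With the muscle score as covariate 1 member was called lower. Trpv4 also turned to 0.0052 without wild type library 3, to 0.15 with the endothelial score and to 0.015 without knockout libraries 6, 7 and 8, and Tead4 turned to -0.51 with the endothelial score. With single libraries left out, 3 to 5 members were called higher (5 without wild type library 3) and 2 were called lower each time. With single libraries left out Trpv4 lay between -0.12 and 0.0052. The Piezo2 to Piezo1 difference lay between -0.18 and 0.10, turning sign without wild type library 3 (0.10), knockout library 4 (0.02) or knockout library 5 (0.04). The Wwtr1 to Yap1 difference lay between 0.30 and 0.39. Replicate numbers did not pair the libraries: 3 of 8 same-numbered pairs correlated above 0.1, over a range of -0.40 to 0.39, and 1 knockout library was most like its own number. With the replicate block 7010 genes passed in all, again 3 members higher and 2 lower, and Ankrd1 differed by 4.44. The cause of these shifts was not tested. Depth limits Tead2, Tead4 and Ankrd1, whose lowest libraries held 11, 12 and 0 counts.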
